A study of Rattus norvegicus with 12 samples.

Results

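The genes described here are 10 feedback regulators of mitogen-activated protein kinase (MAPK) signalling in newborn rat heart muscle cells: the phosphatase genes Dusp1, Dusp4, Dusp5, Dusp6 and Dusp10, the Sprouty and Spred genes Spry1, Spry2, Spry4 and Spred1, and the immediate-early gene Ier3. They were taken by name: every probe that the scanner files label with 1 of these 10 symbols was used, which gave 11 of the 30367 probes on the array, and all 10 genes were among the 14376 genes tested. Ventricular cardiomyocytes of neonatal rats were either left unstretched (control) or held under pulsatile biaxial stretch with 20% elongation for 2, 6 or 24 h, and each of these 4 groups had 3 cultures, read on 1 array each. All cells, the controls included, were plated on collagen type I coated silicone membranes in medium with 10% serum and were cultured for 24 h before the stretch treatment. The labels name no genetic change and no drug in any group. The same 3 controls served all stretch times, and neither their own time in culture nor whether the 3 cultures of a group came from separate cell isolations is given in the sources used here, so errors and p-values measure the spread between cultures, which may be technical, and stretch time cannot be told apart from time in culture.

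MAPK cascades pass signals from growth factor receptors, integrins and stretch to the kinases ERK, p38 and JNK, which in heart muscle cells take part in hypertrophic growth and stress responses. The cascades switch on genes for their own inhibitors: dual-specificity phosphatases (Dusp) remove the activating phosphates from the kinases, and Sprouty and Spred proteins act further up, between the receptor and Ras or Raf. Because several of these genes are themselves transcribed in response to MAPK activity, their transcripts are often read as a record of it, although a transcript level measures neither the protein nor the activity of a kinase.

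Promoter sequence was read for 8 of the 10 genes from RefSeq's promoter windows of the build GRCr8 (250 bases before the start of transcription and 50 after it; Spry2 has 2 such windows, and Dusp4 and Ier3 were not matched). These windows were searched on both strands for motifs of factors that act below cyclic AMP and MAPK signals: the full cyclic AMP response element (CRE, TGACGTCA), its core TGACG, which also lies inside the full element on each strand, the AP-1 motif TGANTCA, the ETS motif CCGGAA and, by name, the serum response element. The 250 bases before the start are printed here 5′ to 3′ for Dusp1 and Dusp10, which had the highest log2 changes among the 10 genes at 24 h, for Spry2, which was called at 2 h, and for Dusp5, whose window held the serum response elements. Capitals mark a motif.
Dusp1, chr10:17184603-17184852, plus strand: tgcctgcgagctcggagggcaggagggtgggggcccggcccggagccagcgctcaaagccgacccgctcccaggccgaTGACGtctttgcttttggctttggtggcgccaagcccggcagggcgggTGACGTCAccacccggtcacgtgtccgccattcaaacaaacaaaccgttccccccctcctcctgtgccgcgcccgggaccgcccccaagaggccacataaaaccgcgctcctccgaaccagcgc
Dusp5, chr1:262543524-262543773, plus strand: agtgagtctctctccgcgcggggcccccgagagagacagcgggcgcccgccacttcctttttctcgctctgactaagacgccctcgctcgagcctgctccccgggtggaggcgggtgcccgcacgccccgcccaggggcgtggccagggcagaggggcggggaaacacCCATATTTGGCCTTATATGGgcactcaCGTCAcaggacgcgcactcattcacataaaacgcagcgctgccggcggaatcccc
Dusp10, chr13:98145643-98145892, plus strand: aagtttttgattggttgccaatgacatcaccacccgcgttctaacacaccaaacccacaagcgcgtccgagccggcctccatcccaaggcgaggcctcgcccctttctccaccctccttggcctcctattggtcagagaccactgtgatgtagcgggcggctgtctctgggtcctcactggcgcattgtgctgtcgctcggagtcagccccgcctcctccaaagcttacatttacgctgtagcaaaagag
Spry2, start 1, chr15:89111927-89112176, minus strand: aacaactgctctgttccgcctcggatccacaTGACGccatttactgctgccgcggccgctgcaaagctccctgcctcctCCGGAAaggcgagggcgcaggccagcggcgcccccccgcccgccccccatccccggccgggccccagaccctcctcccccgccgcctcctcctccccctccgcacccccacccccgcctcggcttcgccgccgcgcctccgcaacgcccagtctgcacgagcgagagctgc

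In the Dusp1 window a full CRE lay at -124 to -117 from the start of transcription, and a further core lay at -172 to -168. The Dusp5 window held 2 adjoining serum response elements, at -82 to -73 and -72 to -63, then a core at -55 to -51, and an ETS motif after the start at 5 to 10. The first Spry2 window held a core at -219 to -215 and an ETS motif at -171 to -166, and the Spry4 window an ETS motif at -81 to -76. Of all 33469 rat promoter windows of this length, 1.83% held the full CRE, 21.2% the core, 1.64% the serum response element, 15% the ETS motif and 7.33% the AP-1 motif. The windows of Dusp6, Dusp10, Spry1 and Spred1 and the second Spry2 window held none of these letters. A match is a description of the sequence, and none of these data measured binding.

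**Figure D1:**
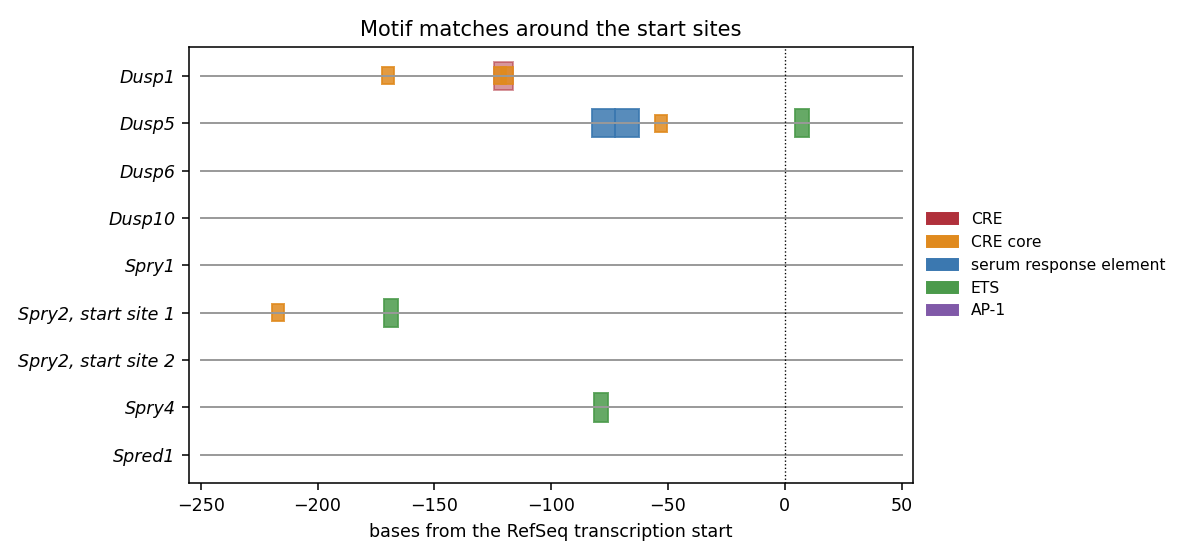
Motif matches in the RefSeq windows of 8 genes (Spry2 has 2 start sites), placed by distance in bases from the start of transcription (dotted line). Boxes are matches on either strand. The full CRE of Dusp1 spans -124 to -117, the serum response elements of Dusp5 adjoin each other at -82 to -63, and no AP-1 match was found in any of the 9 windows.

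Levels are given as percent of the array's 75th percentile of signal, and changes as differences of log2 signal relative to that percentile. A gene was called when its adjusted p from limma was below 0.05. Levels of different genes come from different probes and are not compared. The 75th percentile lay between 1142 and 1671 intensity units, and 64.7% to 70.6% of spots were well above background. Against control, the gene in the middle of all 14376 changed by a log2 value of -0.01, -0.05 and -0.08 at the 3 stretch times in turn. With the array's own median as the base that middle value at 24 h was 0.11, and with the spike-in spots as the base it was 0.04, 0.30 and 0.37 at the 3 times. All controls, all 2 h arrays and replicates 1 and 2 of 6 h were on slide 1, and replicate 3 of 6 h and all 24 h arrays on slide 2, so only the 6 h group links the slides. Where the slide is put in the model as a block, the difference between slides comes from replicate 3 of 6 h against replicates 1 and 2. All 24 h values of such fits therefore hang on that 1 array. Markers of cardiomyocytes (15 of 15) were well above background on all 12 arrays, and at 24 h 11 of them were lower and 3 higher (median log2 change -0.33). Their summed level was 94390 to 100200% in control and 82920 to 88860% at 24 h. Markers of macrophages and leukocytes fell at 24 h in 9 of 9 tested (median log2 change -1.35), from a summed level of 1951 to 1999% in control to 711.8 to 810.7%, while Cd163, Mrc1 and Fcgr3a of that list were well above background on 0, 2 and 5 arrays. At 24 h fibroblast markers were lower in 9 and higher in 0 of 11, endothelial markers lower in 7 and higher in 1 of 11, and smooth muscle and pericyte markers lower in 6 and higher in 3 of 12. The summed levels in control and at 24 h were 16990 to 18220% and 12300 to 14240% for fibroblasts, 432.8 to 454% and 331.5 to 354.7% for endothelium, and 6861 to 7045% and 6859 to 7077% for smooth muscle. Fewer cells of a type and less RNA per cell cannot be told apart in such bulk samples, and the part of these shifts in the results for the feedback genes was not tested.

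The feedback genes did not all move one way. Ier3 rose at all 3 times, Spry2 rose at 2 h, and at 24 h Dusp10, Dusp1 and Ier3 rose by 1.64-fold to 1.85-fold while Spry1 fell by 0.46 on the log2 scale. At 2 h 2 of the 10 genes were called against 9.2% of all genes tested: 2 were higher (background 3.1%) and 0 lower (background 6.1%). At 6 h 1 of 10 was called against 16.8%: 1 was higher (background 5.06%) and 0 lower (background 11.7%). At 24 h 7 of 10 were called against 47.9% of all genes: 4 were higher (Dusp1, Dusp6, Dusp10 and Ier3; background 16.2%) and 3 lower (Dusp5, Spry1 and Spred1; background 31.7%). The 6 h count is below the background, the 3 lower genes at 24 h are near it, and no test of the list was made. The split at 24 h depends on the scaling: by the array median it was 6 higher and 1 lower, by quantiles 5 and 2, and by the spike-in spots 6 and 0. The split of all 14376 genes moved with the scaling too. It was 2324 higher and 4564 lower as reported, and 5579 and 2202 by the array median. By quantiles it was 3338 and 2929, and by the spike-in spots 6728 and 630. With the slide as a block in the model, 3 of the 10 genes were called at 24 h (Dusp10, Ier3 and Spry1), against 14.2% of all genes in that fit. The median log2 change of the 10 genes was 0.02 at 2 h, 0.02 at 6 h and 0.18 at 24 h. All 10 differed among the 4 groups in limma's moderated F test, against 52.8% of all genes, and 6 did with the slide as a block, against 19.5% of all genes.

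**Figure D2:**
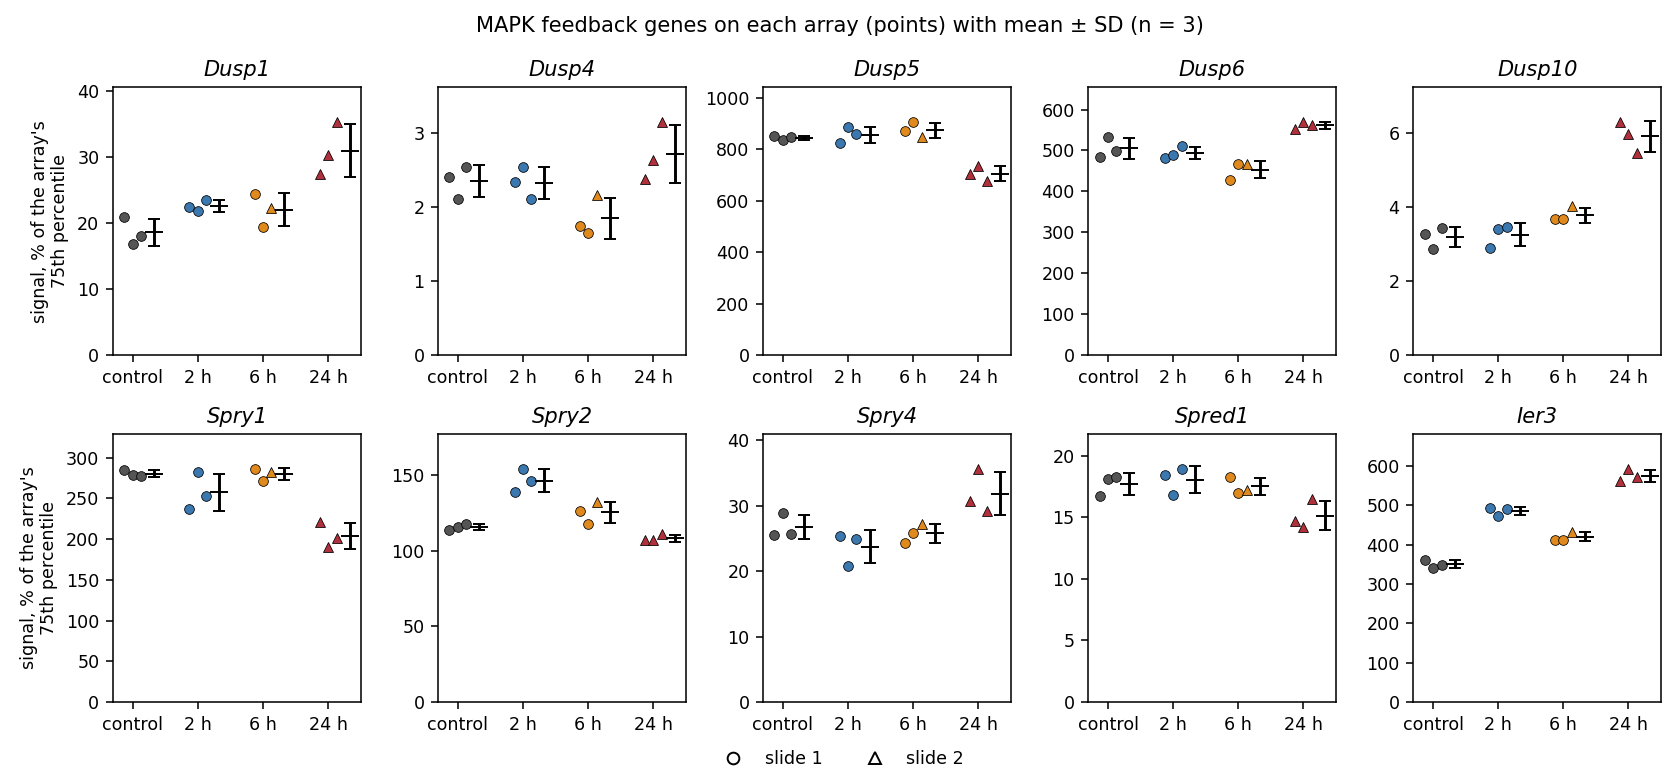
Signal of each gene on every array, as percent of the array's 75th percentile (vertical axes from 0, each gene on its own scale), by group; circles are arrays of slide 1 and triangles of slide 2, and the bar beside each group is the mean ± SD of 3 cultures. Ier3 lies above its controls at all 3 times; Dusp1 and Dusp10 are highest at 24 h, and Spry1 is lowest there, all on this scale.

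The phosphatase genes are taken first. Dusp1 encodes an inducible nuclear phosphatase of p38, JNK and ERK. Its signal was 20.9, 16.9 and 18.1% of the 75th percentile in the controls, 22.4, 21.8 and 23.5% at 2 h, 24.4, 19.4 and 22.3% at 6 h, and 27.4, 30.3 and 35.3% at 24 h. Every 24 h culture lay above every other culture, the 2 h cultures lay just above the controls, and the 6 h cultures overlapped with them. At 24 h Dusp1 was 1.66-fold higher than control, a log2 change of 0.73 ± 0.11 (SE, n = 3; adjusted p = 0.000422). The log2 change was 0.28 ± 0.11 at 2 h (adjusted p = 0.152) and 0.24 ± 0.11 at 6 h (adjusted p = 0.167), neither of which was called. With the slide as a block the 24 h change was 0.70, with an adjusted p of 0.0548.

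Dusp10 encodes a phosphatase that prefers p38 and JNK over ERK. Its probe was dim but well above background on all 12 arrays, at 3.27, 2.88 and 3.43% in the controls, 2.9, 3.41 and 3.46% at 2 h, 3.67, 3.67 and 4.02% at 6 h, and 6.3, 5.99 and 5.46% at 24 h. The 2 h cultures overlapped with the controls, the 6 h cultures lay above both, and the 24 h cultures stood clear of all others. At 24 h it was 1.85-fold higher than control, a log2 change of 0.89 ± 0.09 (SE; adjusted p = 2.67e-05), and at 6 h the change was 0.25 ± 0.09 (adjusted p = 0.0842), or -0.0621 with normexp background correction. The size at 24 h depends on how the background of this dim probe was corrected: with normexp on the mean and background signals it was 0.13 (adjusted p = 0.352), with the deposited series matrix 0.50, and with the slide as a block 0.76 (adjusted p = 0.0142).

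Dusp5 encodes a nuclear phosphatase specific to ERK. Its controls read 851, 835 and 846%, the 2 h cultures 824, 886 and 858%, the 6 h cultures 870, 905 and 846%, and the 24 h cultures 704, 736 and 676%. The first 3 groups overlapped and every 24 h culture lay below them. The log2 change at 24 h was -0.26 ± 0.05 (SE; adjusted p = 0.00139) relative to the 75th percentile, but -0.06 relative to the array median and 0.19 relative to the spike-in spots, neither of them called, so its direction depends on the scaling. With the slide as a block it was -0.19 (adjusted p = 0.182).

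Dusp6 encodes a cytoplasmic phosphatase of ERK. It read 483, 534 and 498% in the controls, 481, 490 and 511% at 2 h, 428, 466 and 466% at 6 h, and 553, 569 and 562% at 24 h. The 6 h cultures were the lowest and the 24 h cultures the highest, with no overlap between either group and the controls. The log2 change was -0.16 ± 0.05 at 6 h (adjusted p = 0.069), not called, and 0.20 relative to the spike-in spots, so the direction at 6 h depends on the scaling. At 24 h it was 0.15 ± 0.05 at 24 h (adjusted p = 0.0341). The call at 24 h was lost in 9 of 25 alternatives. Among them were the fits without control replicate 1 (adjusted p = 0.106), without control replicate 3 (0.0919), and without replicate 1, 2 or 3 of 24 h (adjusted p = 0.0573, 0.0874 and 0.0772), and that with the slide as a block (change 0.09, adjusted p = 0.58). Quantiles (0.13, adjusted p = 0.0897) and no filter on dim probes (0.15, adjusted p = 0.0691) also lost it.

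Dusp4 encodes a further inducible nuclear phosphatase of ERK and JNK, and it had the dimmest probe of the list, at 2.4, 2.11 and 2.53% in the controls, 2.34, 2.53 and 2.1% at 2 h, 1.74, 1.64 and 2.16% at 6 h, and 2.37, 2.63 and 3.14% at 24 h. It was well above background on 11 of 12 arrays, the exception being replicate 3 of 2 h. All groups overlapped with the controls. None of its changes against control was called: -0.02 at 2 h, -0.35 ± 0.13 at 6 h (adjusted p = 0.0874) and 0.20 ± 0.13 at 24 h (adjusted p = 0.219). The 24 h value was -0.30 with normexp (adjusted p = 0.0479), -0.15 in the fit that holds slide as a block, and 0.65 relative to the spike-in spots, so no direction can be given for Dusp4 at 24 h. Without replicate 3 of 6 h, the 6 h array on slide 2, the 6 h change was -0.47 (adjusted p = 0.0398).

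Among the Sprouty genes, whose proteins hold back signalling from receptor tyrosine kinases to ERK, Spry2 was called early. Spry2 read 114, 116 and 118% in the controls, 139, 154 and 146% at 2 h, 126, 118 and 132% at 6 h, and 107, 107 and 111% at 24 h. All 2 h cultures lay above all others, and the 24 h cultures lay below the controls. At 2 h it was 1.26-fold higher than control, a log2 change of 0.33 ± 0.06 (SE; adjusted p = 0.0064). The changes at 6 h (0.11 ± 0.06, adjusted p = 0.193) and at 24 h (-0.10 ± 0.06, adjusted p = 0.155) were not called, and the 24 h value was 0.0940 relative to the array median and 0.35 relative to the spike-in spots. The 2 h call held in 24 of 26 alternatives, and under spike-in scaling (0.37, adjusted p = 0.602; brighter spike-in spots alone 0.48, adjusted p = 0.289) it was lost.

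Spry1 read 285, 279 and 277% in the controls, 237, 282 and 253% at 2 h, 286, 272 and 283% at 6 h, and 221, 190 and 201% at 24 h. The 24 h cultures were below all others. At 24 h it was 1.38-fold lower than control, a log2 change of -0.46 ± 0.07 (SE; adjusted p = 0.000385), while 2 h (-0.13 ± 0.07, adjusted p = 0.292) and 6 h (0.00, adjusted p = 0.993) were not called. With the slide as a block the 24 h change was -0.49 (adjusted p = 0.0383), and with spike-in scaling it was -0.02 (adjusted p = 0.936).

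Spry4 has 2 probes on the array, which differed in their pattern. The brighter one, used for the gene, read 25.6, 28.9 and 25.7% in the controls, 25.4, 20.8 and 24.9% at 2 h, 24.3, 25.8 and 27.2% at 6 h, and 30.8, 35.6 and 29.2% at 24 h, where all 3 cultures lay just above the controls. Its log2 change at 24 h was 0.25 ± 0.10 (SE; adjusted p = 0.0507) and missed the threshold, but it was called in 10 of 25 alternatives. Without control replicate 2 the adjusted p was 0.0405, without replicate 2 of 2 h 0.0284 and without replicate 3 of 24 h 0.036. Other scalings also gave a call: quantiles (0.37, adjusted p = 0.00973), the array median (0.45, 0.00345), the spike-in spots (0.70, 0.000883) and the brighter ones (0.68, 0.00186). So did normexp (0.23, 0.0338), the series matrix (0.32, 0.00384) and a filter for probes above background on all 12 arrays (0.25, 0.0422). The second probe read 7.3, 7.41 and 7.22% in the controls and 7.55, 6.14 and 6.75% at 24 h, a change of -0.11 (adjusted p = 0.465), and the mean of both probes changed by 0.07. No direction can be given for the gene from these probes.

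Spred1 encodes a membrane-bound inhibitor that recruits neurofibromin, which switches Ras off. It read 16.7, 18.1 and 18.3% in the controls, 18.4, 16.8 and 18.9% at 2 h, 18.3, 17 and 17.2% at 6 h, and 14.7, 14.2 and 16.5% at 24 h, where all 3 cultures lay below the controls. Its log2 change was 0.03 at 2 h, -0.02 at 6 h and -0.23 ± 0.07 (SE; adjusted p = 0.0203) at 24 h relative to the 75th percentile, but 0.22 at 24 h relative to the spike-in spots (adjusted p = 0.251), so its direction depends on the scaling. The 24 h call was lost without control replicate 2 (adjusted p = 0.063), control replicate 3 (0.0699), replicate 1 of 24 h (0.062) or replicate 2 of 24 h (0.0767), and with the slide as a block (-0.19, adjusted p = 0.374). Quantiles (-0.06, adjusted p = 0.502) and the array median (-0.03, adjusted p = 0.71) also lost it.

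Ier3 encodes an immediate-early protein that is phosphorylated by ERK and hinders the dephosphorylation of ERK, so it acts in the opposite sense to the phosphatases. It read 361, 340 and 349% in the controls, 494, 474 and 490% at 2 h, 413, 413 and 433% at 6 h, and 562, 592 and 572% at 24 h. The 4 groups did not overlap at all: the 24 h cultures were highest, then those of 2 h, then those of 6 h, then the controls. Against control the log2 change was 0.47 ± 0.04 at 2 h (SE; adjusted p = 0.000609), 0.26 ± 0.04 at 6 h (adjusted p = 0.00378) and 0.72 ± 0.04 at 24 h (adjusted p = 1.33e-06), that is 1.39-fold, 1.2-fold and 1.64-fold. The calls at 6 h and 24 h held in all 26 and all 25 alternatives tried, in which the change ranged from 0.24 to 0.72 at 6 h and from 0.65 to 1.16 at 24 h. At 2 h the call was lost only under the spike-in scalings (0.52, adjusted p = 0.189, and 0.62, adjusted p = 0.0584).

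**Figure D3:**
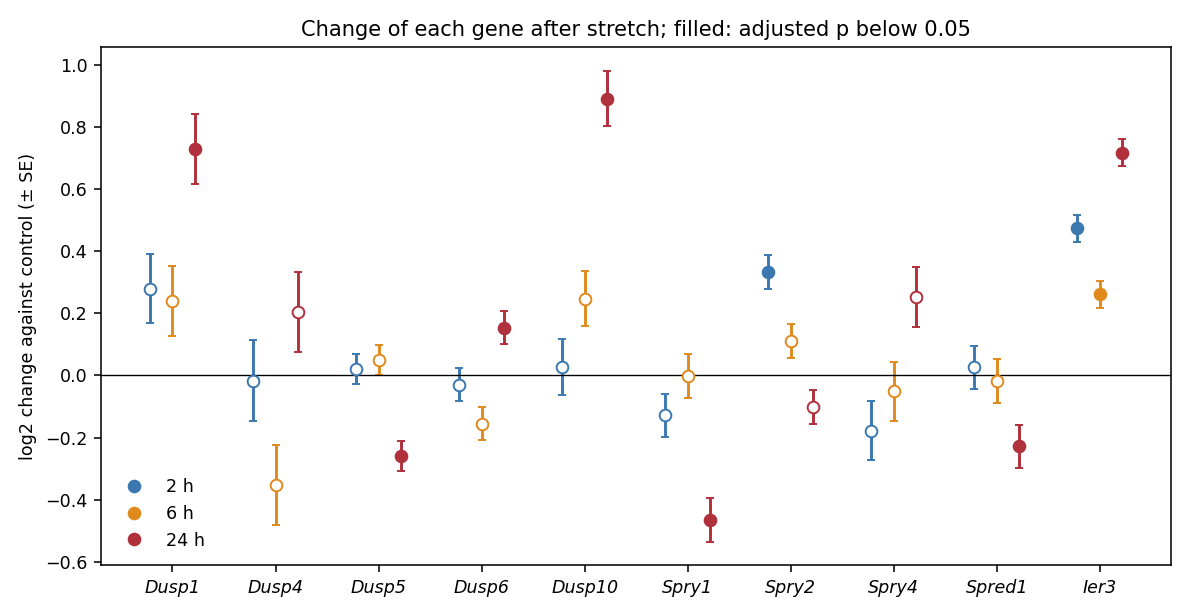
Log2 change of each gene against control at 2 h (blue), 6 h (orange) and 24 h (red), relative to the array's 75th percentile, with the standard error of the limma fit over 12 arrays; filled points have an adjusted p below 0.05. Ier3 is filled at all times and Spry2 only at 2 h; the falls of Dusp5 and Spred1 at 24 h turn to rises of 0.19 and 0.22 with spike-in scaling, and Dusp4 at 24 h turns to -0.30 with normexp.

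The stretch times were also compared with each other. These comparisons share arrays with those against control, so the values stand side by side and are not independent. From 2 h to 6 h 2 of the 10 genes were called, against 10.5% of all genes: 0 were higher (background 3.68%) and 2 lower (background 6.8%). Ier3 fell by 0.21 ± 0.04 (adjusted p = 0.0168) and Spry2 by 0.22 ± 0.06 (adjusted p = 0.0329) on the log2 scale, whereas under spike-in scaling both values were above 0 (0.0961 and 0.0875). Both calls rest on single cultures. The call of Ier3 was lost without replicate 1 of 2 h (adjusted p = 0.055) and without replicate 1 or 2 of 6 h (0.072 and 0.0538). The call of Spry2 was lost without replicate 2 or 3 of 2 h (0.0813 and 0.0606) and without replicate 1 or 2 of 6 h (0.0897 and 0.0953). On slide 1 alone the values were -0.24 for Ier3 (adjusted p = 0.0665) and -0.26 for Spry2 (adjusted p = 0.0802).

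From 6 h to 24 h all 10 genes were called, against 25% of all genes. The 6 higher genes (background 9.57%) were Dusp10 (0.64 ± 0.09, adjusted p = 0.000567), Dusp4 (0.55 ± 0.13, 0.0105), Dusp1 (0.49 ± 0.11, 0.00972), Ier3 (0.46 ± 0.04, 5.05e-05), Dusp6 (0.31 ± 0.05, 0.00206) and Spry4 (0.30 ± 0.10, 0.0412). The Spry4 call rests on its brighter probe: the second probe was at -0.0521, and the mean of both at 0.13 (adjusted p = 0.28). The 4 lower genes (background 15.5%) were Spry1 (-0.46 ± 0.07, 0.000972), Dusp5 (-0.31 ± 0.05, 0.00114), Spry2 (-0.21 ± 0.06, 0.0179) and Spred1 (-0.21 ± 0.07, 0.0495). Most of this comparison crosses the slides. With the slide as a block 5 genes were called (Dusp5, Dusp10, Spry1, Spry2 and Ier3), against 7.66% of all genes. On slide 2 alone, with 1 array of 6 h, the changes were 0.56 for Dusp10, 0.47 for Dusp1, 0.41 for Ier3 and -0.48 for Spry1. The fit with the slide as a block rests on the same arrays for this comparison and gives the same changes, so slide 2 alone is no second check. The change of Dusp4 was -0.01 with normexp.

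Single arrays decided 3 of these calls. Spry4 lost its call from 6 h to 24 h without control replicate 3 (adjusted p = 0.0537), replicate 1 or 2 of 24 h (0.0652 and 0.145) or replicate 1 or 2 of 6 h (0.129 and 0.0958). Spry2 lost it without replicate 1 or 2 of 24 h (0.0514 and 0.0538) or replicate 1 or 3 of 6 h (0.0583 and 0.0629). Spred1 lost it without any 6 h array (0.156, 0.0813 and 0.0798 for replicates 1 to 3), without replicate 1 or 2 of 24 h (0.12 and 0.161), without control replicate 2 or 3 (0.0629 and 0.061) or without replicate 1 or 3 of 2 h (0.0578 and 0.0546).

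From 2 h to 24 h 9 of the 10 genes were called, against 48.2% of all genes: 5 were higher (background 18%) and 4 lower (background 30.2%). Dusp10 (0.86), Dusp1 (0.45), Spry4 (0.43), Ier3 (0.24) and Dusp6 (0.18) were higher at 24 h, and Spry2 (-0.43), Spry1 (-0.34), Dusp5 (-0.28) and Spred1 (-0.25) were lower, although Dusp5, Spry1 and Spred1 were at 0.12, 0.0681 and 0.15 with spike-in scaling. Spry2 was at -0.0288 (adjusted p = 0.893) with all spike-in spots and at -0.15 (adjusted p = 0.551) with the brighter ones. For Spry4 the second probe was at -0.17 and the mean of both probes at 0.13 (adjusted p = 0.201), so no direction can be given for the gene here either. Dusp4 was not called (0.22, adjusted p = 0.182). All arrays of 2 h were on slide 1 and all of 24 h on slide 2; with the slide as a block the calls of Dusp10 (0.73, adjusted p = 0.0196) and Spry2 (-0.55, adjusted p = 0.00694) held and the other 7 were lost, while 12.6% of all genes were called. Without replicate 1 of 2 h the adjusted p of Dusp6 was 0.0506.

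**Figure D4:**
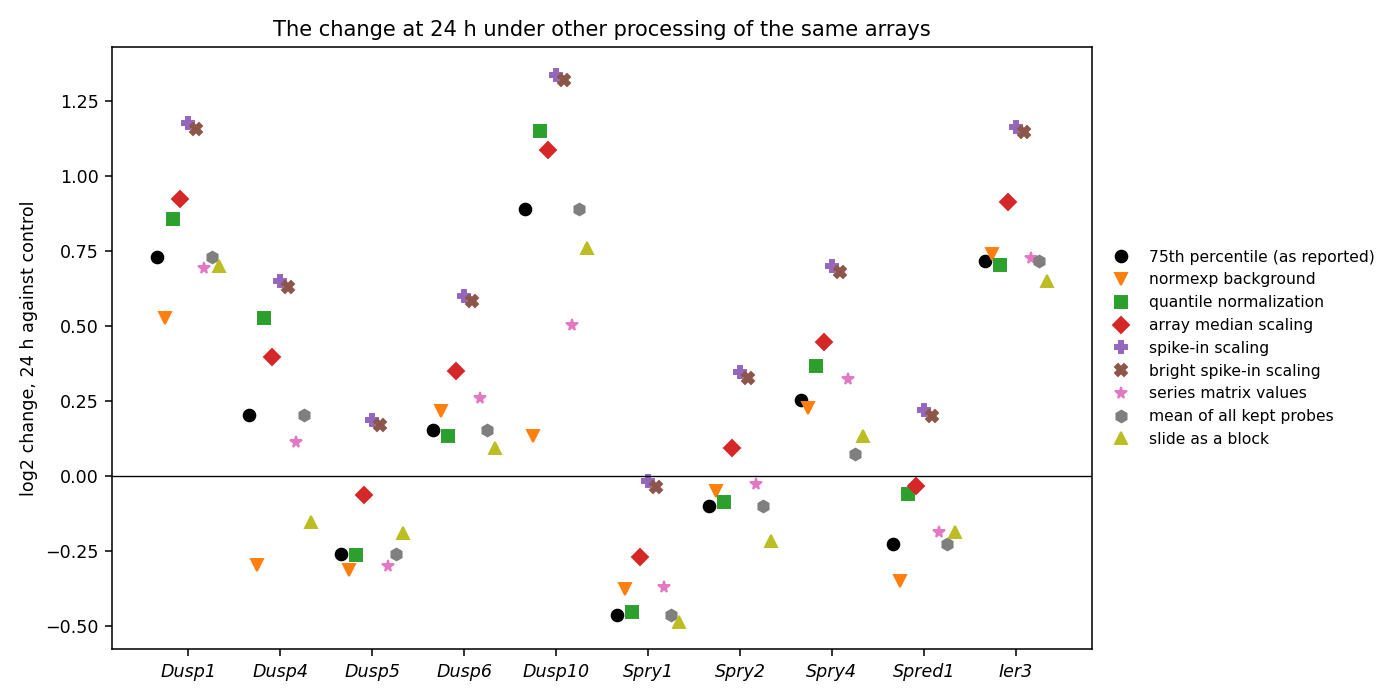
Log2 change at 24 h against control for each gene under the processing reported here (black circles) and under 8 others: background correction, scaling, the deposited matrix, the mean of probes and the slide as a block. Dusp1, Dusp10, Dusp6, Spry4 and Ier3 stay above 0 throughout, Spry1 stays below 0, and Dusp4, Dusp5, Spry2 and Spred1 lie on both sides.

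The wider pathway was read from lists of genes by their place in it. Of all genes, 3.1% were called higher and 6.1% lower at 2 h, 5.06% and 11.7% at 6 h, and 16.2% and 31.7% at 24 h. Several of the list counts below lie near these shares, and no test of a list was made. Of 7 other MAPK phosphatase genes tested, 1 was higher and 1 lower at 2 h and at 6 h, and 4 were higher and 2 lower at 24 h (median log2 change 0.65, against -0.08 for all genes). Dusp8, a phosphatase of JNK and p38, was higher at each time, by 0.67 ± 0.08 (adjusted p = 0.00239), 0.53 ± 0.08 (0.00282) and 0.92 ± 0.08 (1.35e-05). Ptprr, a receptor-type phosphatase of ERK, was lower at each time, by -0.47 ± 0.08, -0.87 ± 0.08 and -1.26 ± 0.08 (adjusted p = 0.00714, 0.000425 and 1.67e-06). Its 2 h call was lost with spike-in scaling (-0.43, adjusted p = 0.418) and the brighter spots (-0.33, adjusted p = 0.681). The brighter spots also lost its 6 h call (-0.42, adjusted p = 0.0515). Ptpn7, a phosphatase best known from blood cells, was at -1.05 ± 0.09 at 24 h (adjusted p = 1e-05), beside the fall of the leukocyte markers given above. Dusp9 (0.65) and Dusp16 (0.72), named after their values were seen, were also higher at 24 h, and Dusp2 was at 0.73 but at -0.16 with normexp.

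Of 11 other inhibitors of the Sprouty, Spred and Ras group, 0 were higher at any time, and 1, 1 and 5 were lower at 2, 6 and 24 h (median -0.21 at 24 h). Of all genes, 6.1%, 11.7% and 31.7% were lower at these times, so the counts at 2 h and 6 h are near that share. Spry3, Spred2 and Spred3 were not tested because no group had them above background on all its arrays. Lrig1, which limits the EGF receptor, was at -0.51 ± 0.08 at 24 h (adjusted p = 7e-04). Its call was lost with spike-in scaling (-0.0585, adjusted p = 0.777) and with the brighter spike-in spots (-0.0774, adjusted p = 0.737). With the slide as a block it was also lost (-0.38, adjusted p = 0.128). The Ras GTPase-activating genes Rasal2 (-0.35) and Rasa1 (-0.24) and Lztr1 (-0.30), whose protein directs Ras to a ubiquitin ligase, were also lower, but these 3 were above 0 with spike-in scaling (0.0962, 0.21 and 0.14).

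Of 18 EGF-family and FGF ligands and receptors, 3 were higher and 2 lower at 2 h, 2 and 2 at 6 h, and 4 and 8 at 24 h (median -0.19). The EGF receptor ligands Hbegf (0.79 ± 0.05, 0.65 ± 0.05 and 0.94 ± 0.05 at 2, 6 and 24 h) and Areg (0.63 ± 0.11, 0.91 ± 0.11 and 1.12 ± 0.11) were higher at each time, with adjusted p from 0.00698 to 7.93e-07. With spike-in scaling the 2 h value of Areg was 0.67 and not called (adjusted p = 0.0587). The ligand Egf was at -0.50 ± 0.08 at 2 h and the neuregulin receptor Erbb4 at -1.20 ± 0.18 at 24 h (adjusted p = 0.00642 and 0.000355). Egf lost its call with normexp (-0.27, adjusted p = 0.164), the series matrix (-0.12, 0.221), spike-in scaling (-0.46, 0.269) and the brighter spots (-0.35, 0.62). Erbb4 lost its call with the slide as a block (-0.69, adjusted p = 0.126).

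Of 12 kinases of the ERK cascade, 0 were higher at 2 h and 6 h, 1 was lower at each of those times, and 1 was higher and 4 lower at 24 h. The 4 lower kinases are near the 31.7% of all genes that were lower at 24 h. Mapk3, which encodes ERK1, was at -0.37 ± 0.08 (adjusted p = 0.00365) and Map2k5 at -0.41 ± 0.06 (0.000486), but both were above 0 (0.0732 and 0.0379) with spike-in scaling. Rps6ka1, an ERK-activated kinase, was higher at 24 h (0.31 ± 0.07, adjusted p = 0.00568). With the slide as a block the 24 h calls of Rps6ka1 (0.17, adjusted p = 0.409) and Mapk3 (-0.45, adjusted p = 0.0797) were lost. Of 24 genes of the JNK and p38 cascades, 2, 2 and 4 were higher and 1, 3 and 4 lower at the 3 times. At 24 h the 4 higher are near the 16.2% of all genes, and the 4 lower are below the 31.7%. Mapk8, the 1 called lower at 2 h, was well above background on 0 of 3 arrays at that time. At 24 h the 2 activating kinases of p38 went apart, Map2k6 at -1.39 ± 0.14 (adjusted p = 2.66e-05) and Map2k3 at 0.76 ± 0.07 (9.88e-06). Of 15 adaptors between receptor and Ras, 2, 2 and 4 were higher and 0, 1 and 1 lower.

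Of 28 transcripts known to respond to ERK, 9 were higher and 0 lower at 2 h (median 0.13, against -0.01 for all genes), 3 higher and 4 lower at 6 h (median 0.01), and 11 higher and 7 lower at 24 h (median 0.17). The AP-1 subunit gene Fosl1 was at 0.60 ± 0.12, 0.75 ± 0.12 and 1.46 ± 0.12 (adjusted p = 0.0137, 0.00307 and 6.78e-06); at 2 h its call was lost without control replicate 2 (adjusted p = 0.0527). Fos was at 0.60 ± 0.11 at 2 h (adjusted p = 0.00884), and the receptor of urokinase, Plaur, at 0.56 ± 0.09 (0.00475). With spike-in scaling Fosl1, Fos and Plaur at 2 h were at 0.64, 0.645 and 0.598 and were not called (adjusted p = 0.07, 0.073 and 0.108). Myc was at 0.51 ± 0.08 at 6 h and 1.07 ± 0.08 at 24 h (adjusted p = 0.00242 and 3.27e-06). The ETS factor gene Etv1 was at -0.43 ± 0.07 at 6 h and -0.90 ± 0.07 at 24 h (adjusted p = 0.00435 and 7.43e-06), the opposite sign to Fosl1 and Myc, although its 6 h value was 0.0217 when scaled by the brighter spike-in spots.

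**Figure D5:**
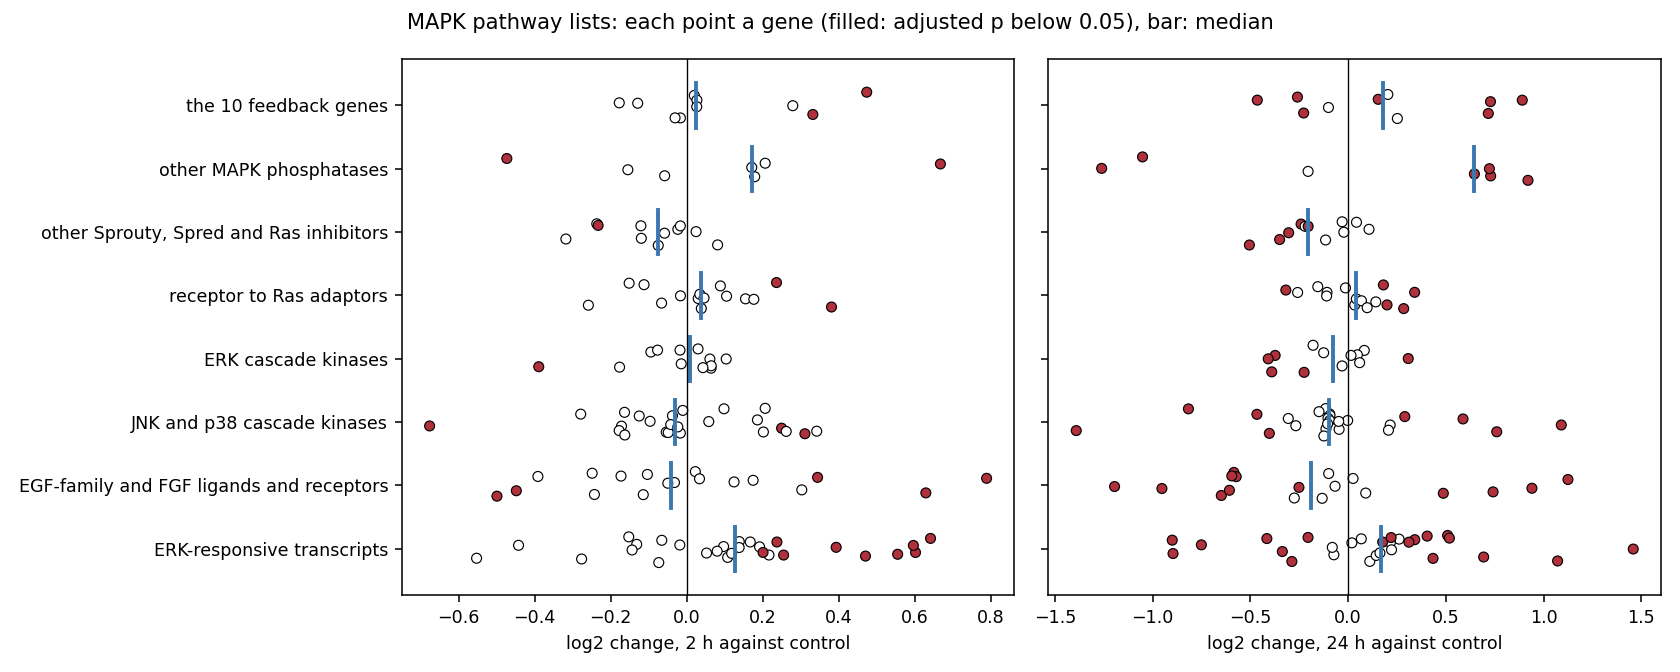
Log2 change against control at 2 h (left) and 24 h (right), relative to the 75th percentile, for the 10 feedback genes and 7 other lists of the MAPK pathway; each point is a gene, filled where the adjusted p was below 0.05, and the blue bar is the list's median. At 2 h the ERK-responsive transcripts have filled points only above 0, and at 24 h most lists have filled points on both sides. Genes can lie on the other side of 0 under spike-in scaling, filled points included. Examples at 24 h are Map2k5 (-0.41, and 0.0379 with spike-in scaling) and Mapk3 (-0.37 and 0.0732).

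Over the 12 arrays, which share groups, slides and scaling, the genes whose log2 signal followed that of Ier3 most closely were Sphk1, Gprc5a and Btg2 (Pearson's r = 0.987, 0.977 and 0.971). For Dusp1 they were Pus1, Runx2 and Baz1a (0.965, 0.956 and 0.941), and for Dusp10 Tspan1, Anxa5 and Scn3b (0.981, 0.977 and 0.977). For Dusp5 they were Tlr4, Klf15 and Cd53 (0.967, 0.965 and 0.962), of which Cd53 is a leukocyte gene, and for Spry2 Lats2, Prickle1 and Guk1 (0.958, 0.946 and 0.942). These are descriptions over 4 groups of 3 cultures. Among the 10 genes themselves, Dusp1 and Ier3 had r = 0.877 and Dusp1 and Spry1 r = -0.819.

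Per the scanner files, which use the rat build rn4, the probe of Ier3 lies at chr20:3076832-3076891, that of Dusp1 at chr10:16944342-16944661, that of Dusp10 at chr13:100059143-100059202, that of Spry1 at chr2:124217774-124217833 and that of Spry2 at chr15:90009823-90009882. Ier3, Dusp5 and Dusp6 were each read by 10 spots per array, Spred1 and each Spry4 probe by 1, and the others by 2, so the values of Spred1 and Spry4 rest on the fewest spots. Which exon each probe reads was not analysed here.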

How the data were processed

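Total RNA of 12 cultures was labelled with Cy3 and read on Agilent rat arrays, 1 culture per array. The file headers give version 11.0.1.1 of Agilent's Feature Extraction as the image reader, and the submitters' processing notes give 10.7.3.1. Per the file headers the deposited processed signal is a background-subtracted intensity on a linear scale with no scaling between arrays. The mean and background signals, deposited as intensity, had nothing subtracted. The deposited spot flags are values of another kind (other), either 0 or 1. The series matrix holds an intensity for 28902 probes; on the log2 scale its column medians were 7.02 to 7.14, any scaling between arrays by the authors is not stated in the sources used here, and it served as an alternative.

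Here the log2 of the processed signal minus each array's 75th percentile was used, without outlier spots (224 to 359 of 58717 per array), averaged per probe. Probes well above background on all 3 arrays of a group were kept (18997 of 30367), and each of 14376 genes took its probe with the highest mean. In R 4.3.3, limma 3.58.1 (lmFit, then eBayes) gave each group its own mean in 1 linear model over the 12 arrays, with two-sided tests adjusted by Benjamini-Hochberg over all genes, and was tested on simulated data. The few arrays per group limit the precision. Alternatives changed the background correction, scaling, filter, probe choice, deposited values, slide, replicate number, groups in the fit and each left-out array; slide 2 alone and the brighter spike-in spots were added after seeing the data. The genes, the pathway and marker lists and the alternatives were chosen with earlier results of these data known. Genes named are the 10, up to 4 called members of each pathway list per time with the largest change, and the 3 genes most correlated with each of the 10, of which those of 5 are given; exceptions are stated, and a gene that the rule names is not reported here. No protein sequences were used here. Figures were drawn with matplotlib 3.10.9.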

Additional observations from a re-analysis of the deposited data

Results flagged for a closer look

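The feedback genes for which the test of the difference between stretch times passed the threshold were looked at again, since their change against control then differs between the times. For 6 h minus 2 h these were Spry2 (-0.22) and Ier3 (-0.21). For 24 h minus 6 h these were Dusp1 (0.49), Dusp4 (0.55), Dusp5 (-0.31), Dusp6 (0.31), Dusp10 (0.64), Spry1 (-0.46), Spry2 (-0.21), Spry4 (0.30), Spred1 (-0.21) and Ier3 (0.46). For 24 h minus 2 h these were Dusp1 (0.45), Dusp5 (-0.28), Dusp6 (0.18), Dusp10 (0.86), Spry1 (-0.34), Spry2 (-0.43), Spry4 (0.43), Spred1 (-0.25) and Ier3 (0.24). All are log2 differences relative to the 75th percentile, and what lies behind them was not tested. Those of Spry4 rest on the brighter of its probes. Differences against 24 h cross the slides except for 1 array of 6 h.

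Ier3 and Spry2 both had a higher value at 2 h than at 6 h, and after 6 h they went apart: Ier3 was 0.46 higher and Spry2 0.21 lower at 24 h than at 6 h. Spike-in scaling turned both differences from 2 h to 6 h above 0.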

How the results depend on the processing

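Over the 10 genes and 6 comparisons, 1304 values under the alternatives kept their direction and side of the threshold, 121 lost a call, 30 gained one and 79 changed sign, 62 of these with no call on either side. For members called, leaving out 1 array at a time gave 2 to 2 at 2 h against control, 1 to 2 at 6 h, 5 to 8 at 24 h, 0 to 2 for 6 h minus 2 h, 7 to 10 for 24 h minus 6 h, 8 to 9 for 24 h minus 2 h and 8 to 10 in the F test. The range at 24 h came from Dusp6 and Spred1 (lost) and Spry4 (gained). With all 12 arrays, 9.2%, 16.8%, 47.9%, 10.5%, 25%, 48.2% and 52.8% of all genes were called, in the same order. The shares of all genes with 1 array left out are not given here, so the ranges describe the 10 genes only.

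For 6 h minus 2 h the count of 2 became 1 with normexp, quantiles or the series matrix, and 0 with the array median, either spike-in scaling, no filter on dim probes, slide 1 alone or only the 2 groups compared. Calls over all genes were 1506 as reported, 619 with normexp, 1569 with quantiles, 1415 with the series matrix and 1502 with the array median. The 2 spike-in scalings gave 1107 and 890, no filter 442, and slide 1 alone 238. For 6 h against control the count of 1 became 2 with quantiles, with the slide as a block or on slide 1 alone, 3 with the array median or spike-in scaling, and 7 with the brighter spike-in spots. Over all 14376 genes the calls at 6 h were 2408 as reported, 2104 with quantiles, 1600 with the slide block and 1350 on slide 1 alone. The array median gave 2816, spike-in scaling 2060, and the brighter spots 6703, of which 6647 were higher. At 2 h both spike-in scalings gave 0 called (112 and 190 genes over the whole array). For 24 h minus 6 h spike-in scaling gave 4, the brighter spots 1 and the slide block 5. Over all genes these settings gave 798, 1072 and 1101 calls, against 3601 as reported. The slide block gave 3 for 24 h against control, 2 for 24 h minus 2 h and 6 in the F test, where spike-in scaling also gave 6. The cause of these shifts was not tested, and slide 1 alone holds fewer arrays. Over all genes the calls at 24 h split into 2324 higher and 4564 lower as reported, 5579 and 2202 with the array median, 3338 and 2929 with quantiles, and 6728 and 630 with spike-in scaling.

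With normexp the log2 change at 24 h against control turned to -0.30 for Dusp4 and -0.16 for Dusp2, and that of Dusp4 from 6 h to 24 h to -0.0081. Signs also turned, first value with all spike-in spots and second with the brighter ones, at 24 h against control for Dusp5 (0.19, 0.17), Spred1 (0.22, 0.20), Spry2 (0.35, 0.33), Map2k5 (0.0379, 0.0190), Rps6ka2 (0.0558, 0.0369), Mapk3 (0.0732, 0.0543), Rasal2 (0.0962, 0.0772), Lztr1 (0.14, 0.12), Rasa1 (0.21, 0.19) and Rasgrp3 (0.13, 0.11). At 6 h against control they turned for Fgf18 (0.18, 0.28), Rps6ka2 (0.0318, 0.13), Mapk12 (0.0491, 0.15), Rasa3 (0.15, 0.25) and Shc1 (0.12, 0.22), and for the feedback genes Dusp6 (0.20, 0.30), Spry1 (0.35, 0.45), Spry4 (0.30, 0.40) and Spred1 (0.33, 0.44), of which Spry1 and Spred1 were called with the brighter spots. With the brighter spots, values also above 0 were those of Dusp4 (0.10), Fgf7 (0.0335), Egr2 (0.0183), Etv1 (0.0217) and Mapkapk3 (0.10). From 2 h to 6 h they turned for Spry2 (0.0875, 0.0879) and Ier3 (0.0961, 0.0965), for Dusp1 (0.27, 0.27), Dusp6 (0.18, 0.18) and Spred1 (0.26, 0.26), and from 2 h to 24 h for Dusp5 (0.12, 0.0030) and Spred1 (0.15, 0.0285) and, with all spots, Spry1 (0.0681).

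Over 18 pairs of same-numbered arrays of different groups, the correlation of deviations was -0.108 to 0.103 with a median of 0.01. For 36 pairs with different numbers it was -0.144 to 0.172 with a median of -0.00317. No shared deviation of same-numbered arrays was seen. With so few arrays per group, these correlations cannot tell whether same-numbered cultures were prepared together. With the replicate block 2, 1, 7, 2, 8 and 9 of the 10 genes were called in the 6 comparisons, in the order used above, and the F test called 10. Only Spry4 (adjusted p = 0.069) and Spred1 (adjusted p = 0.0502) from 6 h to 24 h lost a call. Without the block 9.2%, 16.8%, 47.9%, 10.5%, 25% and 48.2% of all genes were called in these comparisons, and 52.8% in the F test. The shares of all genes with the block are not given here. Dim probes (Dusp4, Dusp10) have a size that depends on the background correction.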
